A study of Mus musculus with 61 samples.

Results

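Imprinted genes are expressed wholly or mainly from the copy inherited from 1 parent, and 32 of them were listed here by name, with earlier results of these arrays known. Each probe set whose annotation named exactly 1 of these genes was kept, bright or dim, which gave 87 probe sets for 30 genes, of 45037 probe sets and 18193 genes so named on the whole array. No such probe set was annotated to Dio3, and the probe set of H19 also named a microRNA gene, so neither was measured. A gene's leading probe set is the brightest of its own probe sets over all arrays. Snhg14 was listed with its low value in DBA/2J in view, so that value is described and not tested.

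The arrays compared 5 regions of the brain in 6 inbred mouse strains: the hypothalamus, the pituitary gland, the hippocampus, the periaqueductal gray of the midbrain (pag) and, in the forebrain, the bed nucleus that the stria terminalis leads to (bnst). The mice were males of C57BL/6J, 129S6/SvEvTac, FVB/NJ, C3H/HeJ, A/J and DBA/2J, aged 8 weeks. Those of 129S6/SvEvTac came from Taconic Farms and those of the other strains from the Jackson Laboratory. Differences of 129S6/SvEvTac from the other strains therefore cannot be told apart from those of supplier. No group carried a transgene or received a treatment. There were 61 arrays, 2 for each pair of strain and region and 3 for the C3H/HeJ bnst, and an array held RNA of 1 to 5 pooled mice, from 1 mouse in the hippocampus to 5 mice in the pituitary gland. By the methods, replicate arrays held separate mice or separate pools of mice, and the precision is bounded by how few arrays a group has. Hippocampal tissue was frozen at once, whereas the smaller structures were put into RNA Later buffer. Differences of the hippocampus therefore cannot be told apart from those of tissue preservation.

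Imprints are methylation marks that are set in the germ line at control regions and kept on 1 parental copy after fertilisation, and they switch whole clusters of neighbouring genes. Many imprinted genes act on growth, on placenta and on the feeding and endocrine circuits of hypothalamus and pituitary gland. Loss of the paternal copy of the cluster with Ndn, Magel2 and Snrpn is known from Prader-Willi syndrome, in which growth hormone, appetite and behaviour are affected, and loss of maternal Ube3a from Angelman syndrome. The arrays measured the sum of both parental copies, so nothing here bears on which copy was used.

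2 pairs of neighbouring start sites are shown because the results below turn on their genes. By leading probe set, the first pair went opposite ways in the pituitary gland and the second went the same way. The other probe set of Usp29 was higher there, as Peg3 was. The windows are from RefSeq (GRCm38.p6), 250 bases before and 50 after a start, and a window was found for 27 of the 32 listed genes. Peg3, on the minus strand at chr7:6730370-6730669, and Usp29, on the plus strand at chr7:6730333-6730632, start 164 bases apart in opposite directions, and their windows share 263 bases. Capitals mark the cyclic AMP response element TGACGTCA, which reads the same on both strands and is in 1.79% of the 32851 windows of all genes.
Peg3: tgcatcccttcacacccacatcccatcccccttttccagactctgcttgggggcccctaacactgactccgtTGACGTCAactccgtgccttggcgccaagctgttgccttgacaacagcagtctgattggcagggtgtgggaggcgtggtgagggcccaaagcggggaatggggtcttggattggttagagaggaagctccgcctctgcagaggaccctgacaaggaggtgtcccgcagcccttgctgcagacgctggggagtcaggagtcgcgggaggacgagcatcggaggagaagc
Usp29: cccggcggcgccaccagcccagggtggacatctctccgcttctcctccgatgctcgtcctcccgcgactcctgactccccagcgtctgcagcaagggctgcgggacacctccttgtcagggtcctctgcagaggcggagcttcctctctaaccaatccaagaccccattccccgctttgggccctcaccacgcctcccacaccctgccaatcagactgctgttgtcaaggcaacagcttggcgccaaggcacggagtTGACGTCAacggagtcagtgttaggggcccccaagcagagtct
Necdin (Ndn, plus strand, chr7:62348027-62348326) and Magel2 (plus strand, chr7:62376729-62377028) lie side by side in the Prader-Willi cluster. Capitals mark the GC box GGGCGG or its reverse complement CCGCCC, counted on both strands, of which each window holds 2; in the Ndn window the 2 copies overlap. The GC box is in 35.7% of all windows.
Ndn: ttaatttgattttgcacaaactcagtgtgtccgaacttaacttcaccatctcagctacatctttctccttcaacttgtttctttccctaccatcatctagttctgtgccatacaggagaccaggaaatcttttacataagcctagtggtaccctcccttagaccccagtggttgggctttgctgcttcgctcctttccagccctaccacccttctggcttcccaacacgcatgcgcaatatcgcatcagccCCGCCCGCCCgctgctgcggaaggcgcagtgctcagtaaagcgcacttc
Magel2: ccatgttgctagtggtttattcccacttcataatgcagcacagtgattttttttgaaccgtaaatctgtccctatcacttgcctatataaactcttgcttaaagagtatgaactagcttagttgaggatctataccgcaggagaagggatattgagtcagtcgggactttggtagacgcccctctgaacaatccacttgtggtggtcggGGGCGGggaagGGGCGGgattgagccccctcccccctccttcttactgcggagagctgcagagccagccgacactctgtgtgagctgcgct
These matches describe the letters of the windows and nothing about a factor.

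Region separated the imprinted genes much more often than strain. In a two-factor regression of the signals, 71 of the 87 probe sets were region-specific (F test p for region under 0.01 and not above that for strain), or 81.6%, against 60.6% of all probe sets. Of the 30 leading probe sets, 29 were region-specific, and the other was that of the noncoding RNA Rian, which was strain-specific. Strain-specific were 8 of the 87, near the 8.87% of all probe sets. Single regions were then set against the mean of the other 4 on the log2 scale (limma; called at a Benjamini-Hochberg adjusted p under 0.05 over the 44065 probe sets tested, all 87 imprinted ones among them). Differences are of mean log2 signals after values under a floor of 12.8 were raised to it.

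Most imprinted genes had their highest signal in the pituitary gland or the hypothalamus, and more had their lowest in the hippocampus than in any other region. By leading probe set, 15 of the 30 genes were highest in the pituitary gland and 12 in the hypothalamus, and 1 each in the pag (Phlda2), the hippocampus (Ppp1r9a) and the bnst (Snrpn). In these 3, in Zim1 and Rian among the 15, and in Snhg14, Igf2, Impact, Nap1l5, Copg2 and Ube3a among the 12, the highest region and the next were not separated by the test. Snhg14 stands among the 12 with the DBA/2J values it was chosen for. In the other 5 strains its mean was 788 in the bnst and 740 in the hypothalamus. Lowest were 15 in the hippocampus, 9 in the pituitary gland, 3 in the bnst and 3 in the pag. The lowest region and the next were not separated in Calcr, Nap1l5 and Igf2r (hippocampus), Impact and Phlda2 (pituitary gland), Nnat, Kcnq1ot1 and Gnas (bnst) and Plagl1 and Meg3 (pag). Highest and lowest regions were not counted over all genes of the array. Among all probe sets too, the largest share higher was in the pituitary gland (40.6%) and the largest share lower in the hippocampus (29.3%). In the hypothalamus 43 of the 87 probe sets were higher and 8 lower, where 17.0% of all probe sets were higher and 17.0% lower. The hippocampus went the other way, with 10 higher and 53 lower, against 19.1% and 29.3% of all. Genes of either parental origin took part: of 16 measured paternally expressed genes 13 were higher and 1 lower in the hypothalamus by leading probe set, with 2 higher and 13 lower in the hippocampus, and of 12 maternally expressed genes 6 were higher and 1 lower in the hypothalamus, with 1 higher and 10 lower in the hippocampus. Over all probe sets tested the median log2 difference was -0.03 in the hypothalamus and -0.07 in the hippocampus. Over the 87 imprinted probe sets it was 0.17 and -0.32, and over the 30 leading ones, the brightest of each gene, 0.44 and -0.64.

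**Figure D1:**
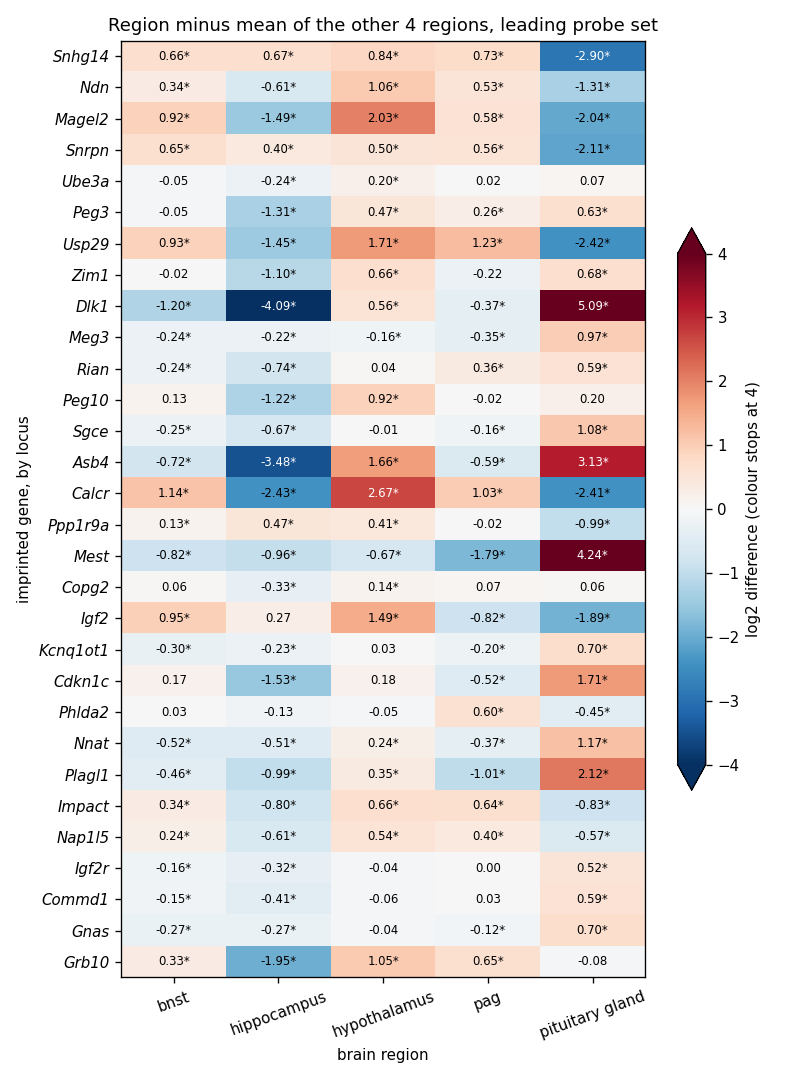
Heat map of the log2 difference between each region (columns) and the mean of the other 4 for the leading probe sets of 30 imprinted genes (rows, by locus), with an asterisk where the difference was called. Red cells prevail in the hypothalamus, blue cells in the hippocampus, and the pituitary gland holds strong colours of both signs, from 5.09 (Dlk1) to -2.90 (Snhg14); the lowest value of the map is that of Dlk1 in the hippocampus, -4.09.

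The pituitary gland split the genes. There, 48 probe sets were higher and 24 lower, against 40.6% and 25.4% of all probe sets, and by leading probe set 15 genes were higher, 11 lower and 4 not called. The bnst had 22 higher and 33 lower (16.0% and 22.6% of all), and the pag 28 higher and 28 lower (22.2% and 21.2% of all). A gene far higher in the pituitary gland raises the mean against which the other regions are set. Without 4 arrays of other regions rich in pituitary markers (summed signal of 4372.2 to 7887.9), 41 probe sets were higher in the hypothalamus and 53 lower in the hippocampus. These were not the richest in strict order, since A/J hypothalamus replicate 2, with a sum of 5353.6, was kept. The summed markers of each region had their highest median in the region so labelled, though single markers did not always. Drd2 (882) and Rgs9 (740) of the bnst list, Chrna6 (93.3) of the pag list and Nr5a1 (132) of the hypothalamus list had their highest median in the pituitary gland. Sums of the bnst list overlapped, at 1680 to 2930 in the bnst and 1340 to 2760 in the pituitary gland. Hypothalamic arrays also carried pituitary markers (9 genes measured, summed signal 628 to 7890, against 46000 to 65600 in the pituitary gland), and bnst arrays carried hypothalamic markers (8 genes, 4900 to 11000, against 11600 to 19200 in the hypothalamus). Beside the genes that were lower in the pituitary gland stands the sum of 6 neuronal markers, which was 3660 to 5530 there and 13000 to 19100 in the other regions. In pieces of tissue, fewer cells of a type and less RNA per cell cannot be told apart, and the part of these markers in the results was not tested.

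Dlk1, a membrane protein related to Notch ligands and found in endocrine precursors, had the largest difference of all members, by its leading probe set, 1449939_s_at. Its signal in the 12 pituitary arrays was 5660 at the lowest, 7050 at the median and 7990 at the highest. The hypothalamus ranged from 362 over 587 to 808, the pag from 171 over 373 to 548, the bnst from 139 over 218 to 369 and the hippocampus from 21.0 over 45.6 to 60.0. No pituitary array came within the range of another region, and no hippocampal array did either. The log2 difference was 5.09 ± 0.0795 (SE; adjusted p = 3.18e-35) in the pituitary gland and -4.09 ± 0.0795 (adjusted p = 3.65e-31) in the hippocampus, and in the order of pituitary gland, hypothalamus, pag, bnst and hippocampus each neighbour differed by the test. The second probe set of Dlk1, 1442724_at, was instead highest in the hypothalamus, at 1220 ± 149 (SD, n = 12) against 596 ± 139 (n = 12) in the pituitary gland, so that the 2 probe sets were called in opposite directions in the bnst (-1.20 and 0.23) and the pag (-0.37 and 0.78). Inside the 4 other regions, the relation of Dlk1 with the summed pituitary markers passed the correction by rank in the hippocampus alone (rho = 0.70, adjusted permutation p = 0.0408; r = 0.51, adjusted permutation p = 0.211). Pearson's r was 0.24 to 0.58 over the 4 regions (lowest adjusted permutation p = 0.135; 24 relations adjusted together) and 0.10 to 0.55 without the 2 arrays farthest from the median sum.

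Mest, a paternally expressed gene of the alpha/beta hydrolase fold, was low in the other 4 regions and high in the pituitary gland. Pituitary arrays ranged from 2330 over a median of 2760 to 3480. Elsewhere the highest value was 248, in the bnst, and the lowest was 71.5, in the pag. The difference was 4.24 ± 0.0723 (SE; adjusted p = 4.68e-34) in the pituitary gland and -1.79 ± 0.0723 (adjusted p = 3.73e-21) in the pag, where the pag was also lower than the next region, the hippocampus (adjusted p = 1.46e-07). Copg2, the coat protein gene next to Mest and maternally expressed, showed no such pattern, with means from 247 to 320 and a pituitary difference of 0.06 (adjusted p = 0.315).

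Plagl1, a zinc finger transcription factor, was 5390 ± 658 (SD, n = 12) in the pituitary gland, 2030 ± 233 in the hypothalamus and under 1500 on every array of the other 3 regions. Its pituitary difference was 2.12 (adjusted p = 9.68e-30) and its pag difference -1.01 ± 0.0498 (SE; adjusted p = 9.31e-19), and pag and hippocampus did not differ (adjusted p = 0.865). Cdkn1c, an inhibitor of cyclin-dependent kinases, was 159 ± 42.7 in the pituitary gland and 25.9 ± 5.05 in the hippocampus (differences 1.71 and -1.53). Nnat, a small membrane protein of developing brain and endocrine cells, was 7460 ± 954 in the pituitary gland and 4450 ± 518 in the hypothalamus, and Sgce, a sarcoglycan, was 489 ± 43.6 and 267 ± 11.4. Each of these 4 was higher in the pituitary gland by the test.

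Asb4, an ankyrin repeat protein with a SOCS box known from the hypothalamus, ran from 457 to 630 in the pituitary gland and from 187 to 305 in the hypothalamus. Bnst arrays were 44.1 to 96.1, pag arrays 47.8 to 91.9 and hippocampal arrays -3.80 to 22.0, of which 8 of 12 were at or under the floor. The 5 ranges did not overlap except those of bnst and pag. Its difference was 3.13 ± 0.0809 (SE; adjusted p = 1.71e-28) in the pituitary gland, 1.66 ± 0.0809 (adjusted p = 1.27e-18) in the hypothalamus and -3.48 ± 0.0809 (adjusted p = 6.66e-29) in the hippocampus, the last held back by the floor.

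Calcr, the calcitonin receptor, which also forms amylin receptors, lies in the same stretch of chromosome 6 as Asb4 and had another order. Hypothalamic arrays ranged from 184 over 232 to 277 and bnst and pag arrays from 59.5 to 176. The pituitary gland (-1.12 to 21.7) and the hippocampus (2.17 to 30.4) lay at the floor on 9 and 11 of 12 arrays. Calcr was thus higher in the hypothalamus (2.67 ± 0.0997, SE; adjusted p = 1.09e-21), the bnst (1.14 ± 0.0976; adjusted p = 4.41e-12) and the pag (1.03 ± 0.0997; adjusted p = 6.05e-11), and lower in the hippocampus (-2.43 ± 0.0997; adjusted p = 1.36e-21) and the pituitary gland (-2.41; adjusted p = 4.13e-22), these last 2 being held back by the floor. Of the other genes there, Peg10, derived from a retrotransposon, was dim (means 14.0 to 51.9) and higher in the hypothalamus, by 0.92. Ppp1r9a, neurabin of the synapse, was 1420 ± 112 in the hippocampus and 635 ± 92.1 in the pituitary gland, a difference of 0.47 and -0.99, and was the only leading probe set apart from Snhg14 and Snrpn that was higher in the hippocampus.

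**Figure D2:**
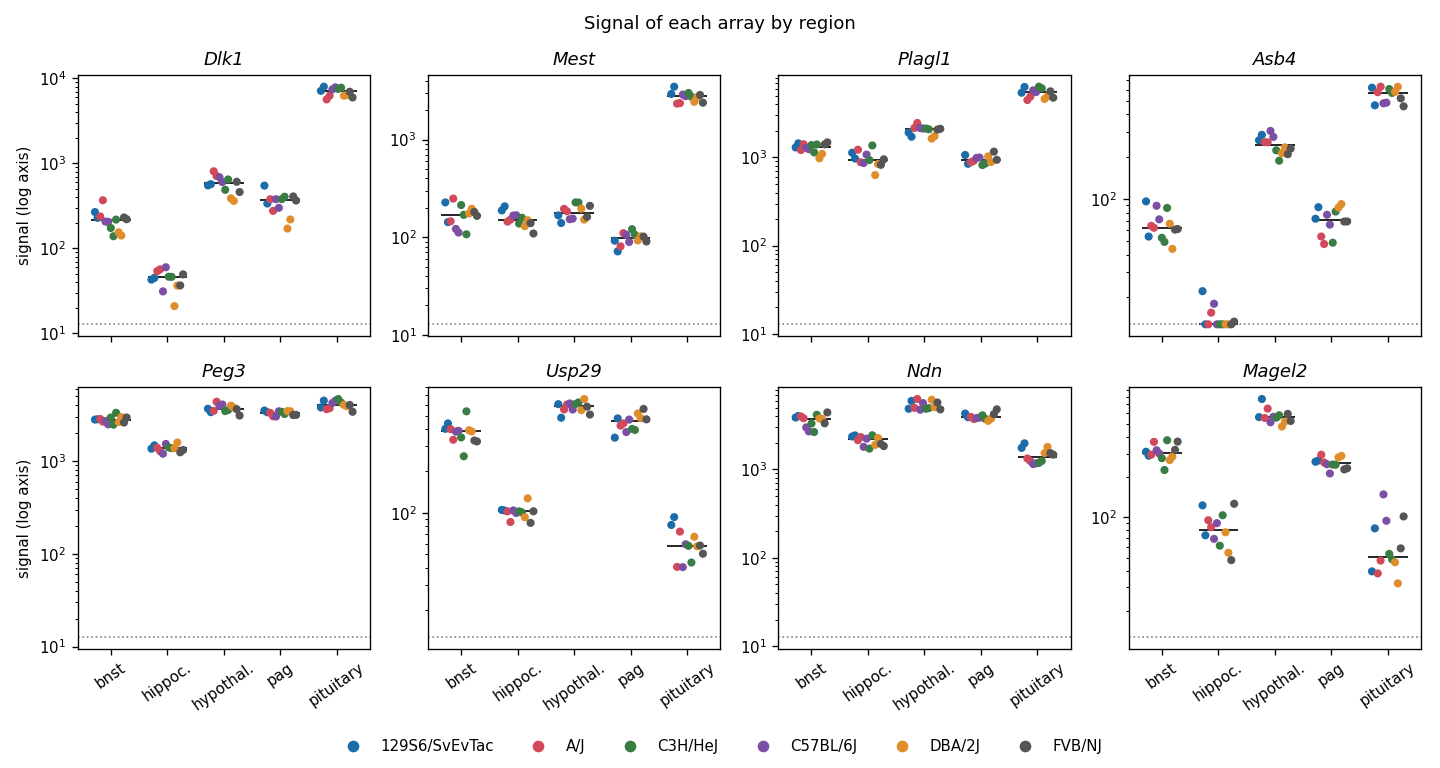
Signal of each array (log axis) for 8 imprinted genes by region, coloured by strain, with the median as a bar and values under the floor of 12.8 (dotted) drawn at it. Dlk1, Mest, Plagl1 and Asb4 are highest in the pituitary gland, where Usp29, Ndn and Magel2 are lowest while Peg3 is not.

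In the Prader-Willi and Angelman cluster on chromosome 7, all 5 genes were called higher in the hypothalamus than in the mean of the other regions, and 4 of the 5 lower in the pituitary gland. Taken by pairs of regions, Magel2 and Ndn were higher in the hypothalamus than in each other region. Snrpn (lowest adjusted p = 0.584) and Snhg14 (lowest adjusted p = 0.333) differed between the hypothalamus and the pituitary gland and not, by the test, between the hypothalamus and the other 3. Ube3a was higher in the hypothalamus than in the bnst and the hippocampus. Magel2, a MAGE protein that works with ubiquitin ligases in protein recycling, ranged in the hypothalamus from 478 over 560 to 768. Bnst arrays were between 226 and 377, pag arrays between 213 and 294, hippocampal arrays between 47.8 and 126 and pituitary arrays between 32.0 and 148. Every hypothalamic array lay above every other array. Its difference was 2.03 ± 0.106 (SE; adjusted p = 7.84e-18) in the hypothalamus, 0.92 ± 0.104 (adjusted p = 2.79e-09) in the bnst and -2.04 (adjusted p = 3.64e-19) in the pituitary gland.

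Ndn, the MAGE protein necdin of postmitotic neurons, was brighter throughout, with 4740 to 6280 in the hypothalamus, 1720 to 2440 in the hippocampus and 1150 to 1980 in the pituitary gland. The difference was 1.06 in the hypothalamus and -1.31 in the pituitary gland. Of its 8 probe sets, 5 were lower in the pituitary gland and 2 dim ones were higher (1438939_x_at, mean 27.9, and 1456575_at, mean 20.1). Snrpn, which encodes a spliceosomal protein of neurons, was measured by 1 probe set of its own, 1432096_at, at 138 to 159 on average in the 4 brain regions and 39.0 ± 22.1 (SD, n = 12) in the pituitary gland (-2.11; adjusted p = 7.48e-21), and 6 more probe sets named it with another gene. Ube3a, the ubiquitin ligase of the maternal copy, varied least of the 30, by 0.35 log2 units between its highest and lowest region. It was higher in the hypothalamus by 0.20 (adjusted p = 0.000645) and lower in the hippocampus (-0.24; adjusted p = 3.01e-05). Its 6 probe sets did not move alike, with 3 higher and 1 lower in the pituitary gland.

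Snhg14, the long noncoding transcript of the paternal copy that hosts small nucleolar RNAs and runs against Ube3a, was read by 3 probe sets. In the brightest, 1436964_at, the 10 pituitary arrays of the 5 strains other than DBA/2J were 60.4 to 102, and the 41 arrays of the other regions in these strains lay from 486 upwards to 965. Its pituitary difference over all 6 strains was -2.90 ± 0.0752 (SE; adjusted p = 1.96e-28), lower in 6 of 6 strains, with both DBA/2J pituitary arrays raised to the floor. The dim probe set 1445296_at was lower there too (-1.03), while 1455087_at had a difference of 0.00 in the pituitary gland and was lower in the hippocampus (-0.55), where the other 2 were higher (0.67 and 0.44).

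Peg3 and Usp29, which share the bidirectional start shown above, parted in the pituitary gland by their leading probe sets. Peg3 encodes a zinc finger protein tied to maternal behaviour and growth, and its signal was highest in the pituitary gland, from 3390 over 4020 to 4650. Hypothalamic arrays ranged from 3090 to 4350, the pag from 3010 to 3500, the bnst from 2460 to 3310 and the hippocampus from 1200 to 1580. Usp29, a ubiquitin-specific protease gene, was lowest in the pituitary gland, from 40.5 over 57.9 to 93.0, and highest in the hypothalamus, from 483 over 591 to 660. The pag (347 to 560) and the bnst (255 to 537) came between, above the hippocampus (84.5 to 127). Peg3 was higher in the pituitary gland by 0.63 (adjusted p = 2.47e-17) and Usp29 lower there (-2.42 ± 0.0742, SE; adjusted p = 3.43e-26), and no range of Usp29 in pituitary gland and hippocampus touched that of the hypothalamus. Both were higher in the hypothalamus (0.47 and 1.71), higher in the pag (0.26 and 1.23) and lower in the hippocampus (-1.31 and -1.45).

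The result for Usp29 rested on the probe set. Its other probe set, 1427551_at, was dim and went the opposite way, at 86.9 ± 23.7 (SD, n = 12) in the pituitary gland and 11.5 to 24.3 on average elsewhere, with a pituitary difference of 2.20 and differences of -0.54 in the bnst and -0.48 in the hypothalamus. Zim1, the maternally expressed zinc finger gene of the locus, was dim, at 72.8 ± 17.7 in the pituitary gland and 28.2 ± 11.5 in the hippocampus.

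Meg3, the maternally expressed noncoding RNA of the Dlk1 locus on chromosome 12, was measured by 11 probe sets that fell apart by region. The leading probe set was 7410 ± 652 (SD, n = 12) in the pituitary gland and 3560 to 3940 on average elsewhere (0.97; adjusted p = 4.10e-24). Of the 11, 6 were higher in the pituitary gland and 4 lower, with differences from 1.80 (1426758_s_at) to -0.87 (1429256_at). Genes with probe sets called in opposite directions in at least 1 region were Dlk1, Gnas, Impact, Kcnq1ot1, Meg3, Ndn, Ppp1r9a, Rian, Snhg14, Ube3a and Usp29. The Impact pair, 1415911_at and 1446750_at, was -0.83 and 0.60 in the pituitary gland. In Kcnq1ot1, the noncoding RNA that silences its neighbours, 1459443_at differed by -0.57 and 1442029_at by 0.34 in the hypothalamus. Ppp1r9a 1457603_at (-0.41) stood against 3 of its probe sets in the hypothalamus, and Rian 1428055_at (-0.34) against 2 in the pag.

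Gnas, which encodes the stimulatory G protein alpha subunit and transcripts from either parental copy, was bright everywhere by its leading probe set, 7810 ± 988 (SD, n = 12) in the pituitary gland and 4530 to 5160 on average elsewhere, a difference of 0.70. The probe set 1427789_s_at of the same gene was 369 to 2040 in the pituitary gland, 47.8 to 123 in the hypothalamus and -10.7 to 16.9 in the hippocampus, a pituitary difference of 4.0, and was singled out after its values were seen. In the pag 1421740_at was higher (0.36) and 1450186_s_at (-0.12) and 1453413_at (-0.31) lower.

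Grb10, an adaptor that restrains insulin and growth factor receptors and is paternally expressed in neurons, had a narrow hypothalamic range, 1430 to 1560. Pag arrays ran from 1080 to 1330, bnst arrays from 758 to 1250, pituitary arrays from 551 to 1030 and hippocampal arrays from 241 to 335. The hippocampal difference was -1.95 ± 0.0374 (SE; adjusted p = 2.55e-31), and every neighbour in the order differed by the test. Impact, which restrains the amino acid sensor GCN2, and Nap1l5, a nucleosome assembly protein, were higher in the hypothalamus (0.66 and 0.54), the pag (0.64 and 0.40) and the bnst (0.34 and 0.24), and lower in the hippocampus (-0.80 and -0.61) and the pituitary gland (-0.83 and -0.57). Commd1, a copper handling protein, Igf2r, the receptor that clears IGF2, and Kcnq1ot1 were higher in the pituitary gland by 0.59, 0.52 and 0.70. Phlda2, a growth restraining gene of the placenta, was the dimmest member, with means of 20.2 to 36.9.

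Igf2, the fetal growth factor, was higher in the hypothalamus (1.49 ± 0.157, SE; adjusted p = 9.11e-10) and the bnst (0.95; adjusted p = 3.79e-06), and lower in the pag (-0.82 ± 0.157; adjusted p = 4.62e-05) and the pituitary gland (-1.89; adjusted p = 3.18e-13). Hypothalamic arrays ranged from 252 over 582 to 1370 and bnst arrays from 149 over 481 to 950. Hippocampal arrays were 187 to 500, pag arrays 107 to 244 and pituitary arrays 54.5 to 122. The spread was widest in the bnst (SD 314) and the hypothalamus (SD 292) and was 92.3 in the hippocampus, and the ranges of these 3 regions overlapped. The pag range overlapped those of the bnst, the hippocampus and the pituitary gland.

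Summed markers of the tissue around the brain moved with Igf2 in some regions. The summed signal of 9 markers of meninges and fibroblasts ran from 388 to 1560 in the bnst and from 448 to 3170 in the hypothalamus, and that of 7 choroid plexus markers from 374 to 10700 and from 465 to 1610. Bright markers weigh most in such sums. In the bnst, Igfbp2 had a median of 428 beside a median meningeal sum of 770. Ttr had 5570 there beside a choroid plexus sum of 7120. Single markers were not related to Igf2. The C3H/HeJ bnst array with Igf2 at 949.7 had meningeal and choroid plexus sums of 1562.7 and 9634, and the C3H/HeJ bnst array with Igf2 at 148.67 had 417.4 and 373.5. The FVB/NJ hypothalamic array with Igf2 at 1373.76 had the highest meningeal sum of its region, 3166.3. Igf2 rose with the meningeal sum in the bnst (Pearson's r = 0.98, rho = 0.97, permutation p = 1e-05 for each, the smallest that 100000 resamples can give, adjusted p = 0.00024; n = 13; r = 0.97 without the 2 arrays farthest from the median sum). The relation was also present in the hypothalamus (r = 0.97, adjusted permutation p = 0.00024; rho = 0.91, adjusted permutation p = 0.00078; n = 12; r = 0.86 without the 2 farthest arrays) and the hippocampus (r = 0.75, adjusted permutation p = 0.0206; rho = 0.80, adjusted permutation p = 0.0111; n = 12; r = 0.73 without 2). In the pag (r = 0.51, adjusted permutation p = 0.211; rho = 0.27, adjusted permutation p = 0.486) and the pituitary gland (r = -0.09, adjusted permutation p = 0.896; rho = -0.02, adjusted permutation p = 0.991) it was not.

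**Figure D3:**
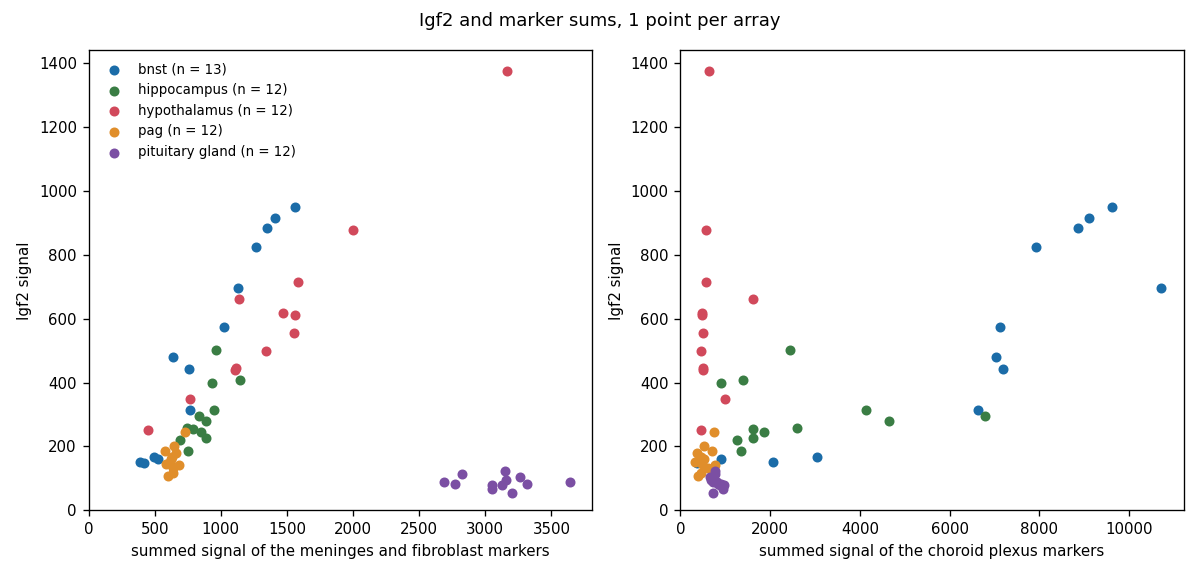
Igf2 signal of each array against the summed signal of 9 markers of meninges and fibroblasts (left) and 7 choroid plexus markers (right), coloured by region. Bnst and hypothalamic arrays climb with the meningeal sum, from 148.67 at a sum of 417.4 to 1373.76 at 3166.3, while the pituitary arrays stay between 54.5 and 122 at sums of 2680 to 3640.

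The choroid plexus sum followed Igf2 in the bnst by the test (r = 0.89, adjusted permutation p = 0.00054; rho = 0.92, adjusted permutation p = 0.00036; r = 0.87 without the 2 farthest arrays). In the hypothalamus the relation did not pass (r = 0.06, adjusted permutation p = 0.896; rho = 0.43, adjusted permutation p = 0.286), but this value rests on the 2 farthest arrays, and r was 0.87 without them. Cdkn1c, whose bnst range was 21.0 to 157, also rose with the meningeal sum in the bnst (r = 0.92, adjusted permutation p = 0.0004; rho = 0.88, adjusted permutation p = 0.00078; r = 0.92 without 2) and with the choroid plexus sum there (r = 0.82, adjusted permutation p = 0.0035; rho = 0.82, adjusted permutation p = 0.00557; r = 0.78 without 2). Its relation with the meningeal sum in the hypothalamus (r = 0.85, adjusted permutation p = 0.00572; rho = 0.72, adjusted permutation p = 0.0345) fell to r = 0.45 without the 2 farthest arrays and so rests on them. These 24 relations were chosen after the values were seen, strain varies along them, and the part of the markers in the region differences of Igf2 and Cdkn1c was not tested.

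Differences between strains were fewer, smaller and often held by a single probe set of a gene. The paper warns that a sequence difference between strains under a probe could change its hybridisation. In a strain difference of a probe set, such a change and a change in transcript amount cannot be told apart here. In 129S6/SvEvTac 14 of the 87 probe sets were higher and 10 lower, against 9.93% and 8.80% of all. C57BL/6J had 14 higher and 8 lower (11.7% and 10.4% of all), A/J 9 and 11 (7.74% and 7.36%), FVB/NJ 7 and 6 (5.68% and 5.32%), DBA/2J 8 and 7 (6.00% and 7.50%) and C3H/HeJ 7 and 6 (5.23% and 5.28%). The Snhg14 probe set chosen for its DBA/2J values, which enter each comparison, is 1 of the 7 lower in DBA/2J and 1 of those higher in each other strain. The splits moved with the scaling. With each array scaled to 1 median, DBA/2J had 27 higher and 5 lower, C57BL/6J 9 and 18, A/J 4 and 9 and FVB/NJ 6 and 3, and with quantile normalization 9 and 16 in A/J and 10 and 5 in C3H/HeJ. Median log2 differences of the leading probe sets were between -0.01 and 0.08, and those of all probe sets between -0.04 and 0.03.

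Rian, a maternally expressed noncoding RNA of the Dlk1 locus that hosts small nucleolar RNAs, was the leading probe set with the widest strain differences apart from Snhg14. Over the 10 arrays of 129S6/SvEvTac, its probe set 1427580_a_at ranged from 574 over 1080 to 1990. C57BL/6J ranged from 583 over 849 to 1310 and FVB/NJ from 537 over 781 to 1260. DBA/2J lay at 306 over 391 to 536, C3H/HeJ (11 arrays) at 175 over 377 to 684 and A/J at 180 over 321 to 568. In each region the arrays of the first 3 strains lay above those of the last 3, with no overlap. Rian was higher in 129S6/SvEvTac (1.03 ± 0.0746, SE; adjusted p = 2.41e-13), C57BL/6J (0.81; adjusted p = 1.18e-10) and FVB/NJ (0.54; adjusted p = 9.70e-07), and lower in A/J (-1.07 ± 0.0746; adjusted p = 1.15e-13), C3H/HeJ (-0.74; adjusted p = 8.42e-10) and DBA/2J (-0.57; adjusted p = 3.24e-07), in 5 of 5 regions each. In the order of strains for Rian, 129S6/SvEvTac and C57BL/6J (adjusted p = 0.216), C57BL/6J and FVB/NJ (adjusted p = 0.122) and DBA/2J and C3H/HeJ (adjusted p = 0.474) did not differ by the test. The other 3 probe sets of Rian moved less: A/J differed by -0.64, -0.22 and -0.02 in 1428055_at, 1452899_at and 1440001_at, and 129S6/SvEvTac by 0.10, 0.50 and 0.01.

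Meg3 gave the clearest case of probe sets that disagreed. Its leading probe set had strain means of 4320 to 4660, and its strain differences lay between -0.11 and 0.06. In 1436713_s_at, C3H/HeJ ranged from 448 over 951 to 2020 and DBA/2J from 754 over 925 to 1540, whereas A/J ranged from 1890 over 2370 to 3740, FVB/NJ from 1920 over 2630 to 4160, 129S6/SvEvTac from 2360 over 2680 to 5020 and C57BL/6J from 2180 over 2780 to 5600. The difference was -1.23 ± 0.0646 (SE; adjusted p = 4.69e-17) in C3H/HeJ and -1.18 ± 0.0664 (adjusted p = 2.18e-16) in DBA/2J. Another pattern was seen in 1429257_at, higher in A/J by 0.78 (2090 ± 544, SD, n = 10) and lower in C3H/HeJ (-0.86; 861 ± 305, n = 11). Meg3 had probe sets called in opposite directions in each strain but FVB/NJ, and Kcnq1ot1 in 129S6/SvEvTac (0.22 and -0.48) and C57BL/6J (0.37 and -0.15).

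**Figure D4:**
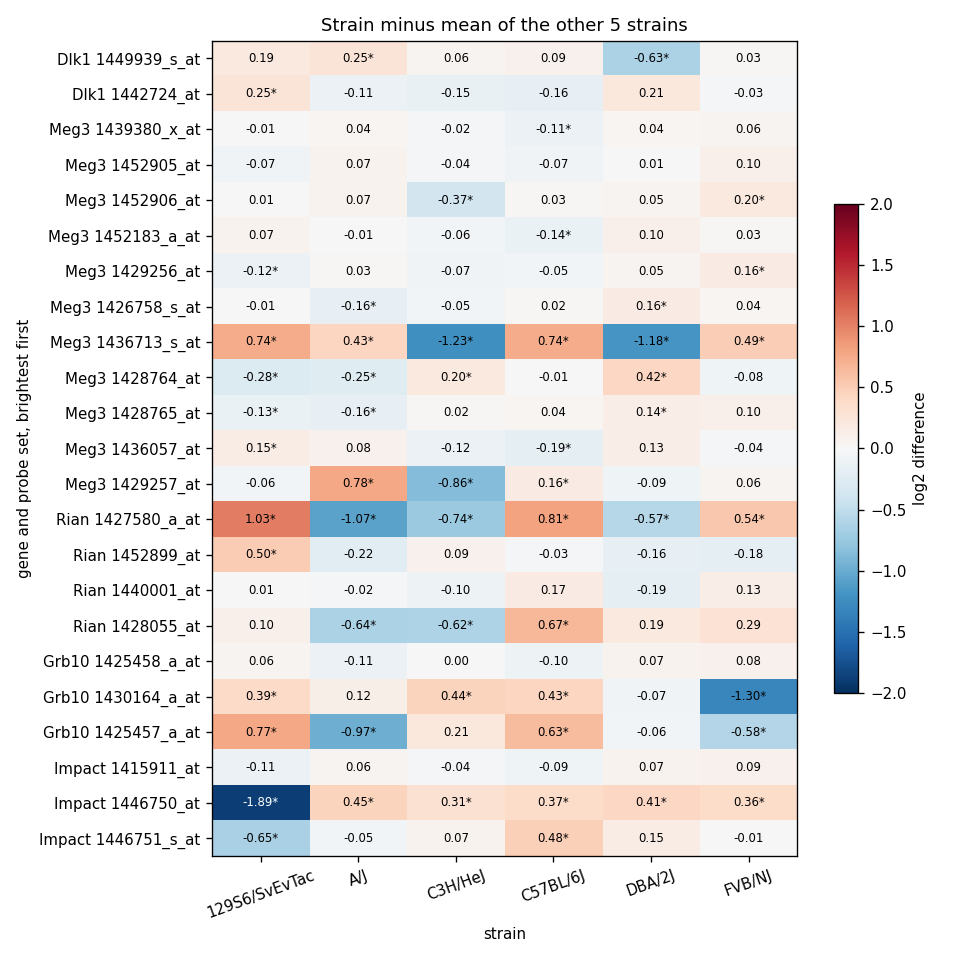
Heat map of the log2 difference between each strain (columns) and the mean of the other 5 for every probe set of 5 imprinted genes (rows, brightest first within a gene), with an asterisk where it was called. Within Meg3, Grb10 and Impact the brightest probe set is near 0, and the strong colours lie in 1 or 2 dimmer probe sets, such as -1.89 for Impact 1446750_at in 129S6/SvEvTac.

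Impact and Grb10 showed the same kind of split, and their dimmer probe sets were singled out after their values were seen. Impact 1446750_at ranged from 26.0 over 53.7 to 79.6 in 129S6/SvEvTac and from 116 to 273 in the other 5 strains, with no overlap (-1.89 ± 0.0613, SE; adjusted p = 2.59e-23), while the leading probe set, 1415911_at, differed by -0.11 and 1446751_s_at by -0.65. Grb10 1430164_a_at had a median of 61.7 over the FVB/NJ arrays and of 117 to 223 in the other strains (-1.30; adjusted p = 2.49e-14), and 1425457_a_at had medians from 43.9 in A/J to 178 in 129S6/SvEvTac. All 6 strain differences of the leading probe set of Grb10 lay between -0.11 and 0.08.

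Among the leading probe sets, the other strain differences were small. Dlk1 was lower in DBA/2J (-0.63 ± 0.0853, SE; adjusted p = 7.91e-07), in 5 of 5 regions. The DBA/2J arrays read 20.97 and 36.56 in the hippocampus, 154.67 and 141.61 in the bnst, 388.25 and 362.17 in the hypothalamus, 171.35 and 218.99 in the pag and 6261 and 6375 in the pituitary gland. In its second probe set the DBA/2J difference was 0.21. Nnat was lower in A/J (-0.40 ± 0.0433; adjusted p = 7.22e-09), and Snrpn was higher in C3H/HeJ by 0.42 ± 0.1 (adjusted p = 0.00352). In 129S6/SvEvTac, Kcnq1ot1, Commd1 and Ndn were higher by 0.22, 0.21 and 0.19 (adjusted p = 0.000169, 3.23e-05 and 0.0125). In C57BL/6J, Ndn (-0.19; adjusted p = 0.0111) and Copg2 (-0.17; adjusted p = 0.0237) were lower. The call of Ndn in 129S6/SvEvTac was lost with each array scaled to 1 median (adjusted p = 0.147), and that of Copg2 with quantile normalization (adjusted p = 0.0623).

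A Snhg14 value of DBA/2J clear below the other strains was seen in 1 probe set of 3. In 1436964_at the DBA/2J arrays read 2.48 and 5.52 in the pituitary gland, 17.01 and 21.32 in the bnst, 53.8 and 27.54 in the pag, 45.09 and 58.0 in the hypothalamus and 51.36 and 51.95 in the hippocampus. In the other 5 strains the lowest array was 60.4 in the pituitary gland, 612 in the bnst, 518 in the pag, 510 in the hypothalamus and 486 in the hippocampus, so no DBA/2J array overlapped them within a region. In 1455087_at DBA/2J was 75.1 ± 28.1 (SD, n = 10) and the other strains 60.7 ± 23.5 (n = 51), and in 1445296_at 19.8 ± 11.1 and 26.8 ± 16.0. Both of these ranges overlapped, 49.7 to 141 with 8.29 to 122 and 1.27 to 32.0 with 0.97 to 60.7. The dim 1445296_at, close to the floor, had a lower DBA/2J mean in each region, such as 12.1 against 26.9 in the bnst and 30.7 against 33.0 in the hippocampus.

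**Figure D5:**
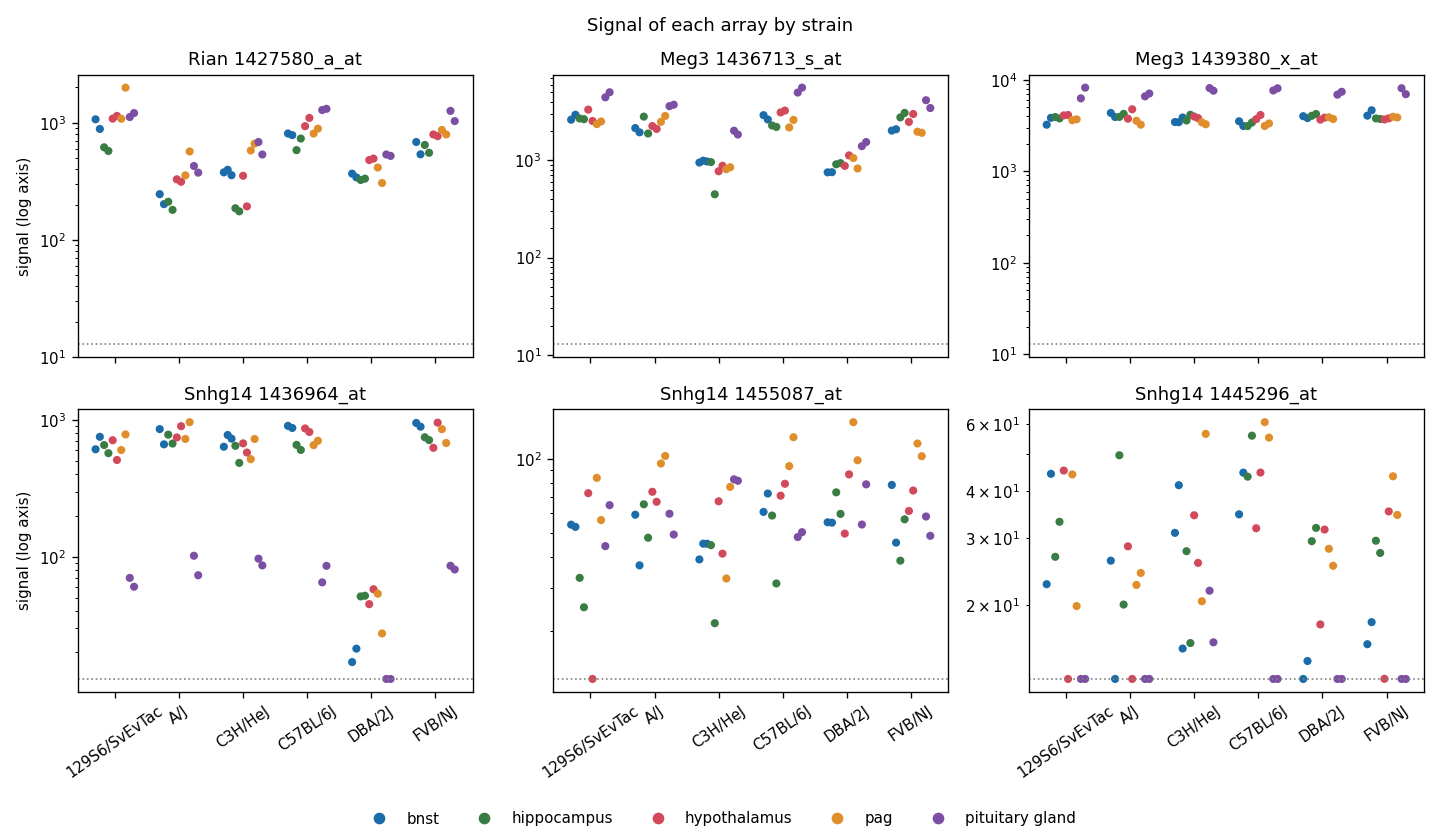
Signal of each array (log axis) by strain for Rian, 2 probe sets of Meg3 and the 3 probe sets of Snhg14, coloured by region, with values under the floor of 12.8 (dotted) drawn at it. DBA/2J is low in Snhg14 1436964_at, between 2.48 and 58.0, and overlaps the other strains in the other 2. C3H/HeJ and DBA/2J are low in Meg3 1436713_s_at and not in 1439380_x_at.

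An interaction of strain and region, meaning that strain differences were not the same in each region, was called for 19 probe sets, 6 of them leading, beside that of Snhg14 chosen for its DBA/2J values, against 11.3% of all probe sets. For Rian (adjusted p = 0.00618) the C3H/HeJ arrays were as low as those of A/J in the hippocampus (186.11 and 175.17 against 211.51 and 180.21) and higher in the pag (579.08 and 662.92 against 355.11 and 568.13) and the pituitary gland (684.03 and 535.07 against 427.07 and 374.61). For Grb10 (adjusted p = 0.0118) the strains were spread in the pituitary gland, from 551.24 and 582.28 in A/J to 1034.85 and 915.3 in FVB/NJ, and close in the hypothalamus. Snrpn (adjusted p = 0.0138) ran in the pituitary gland from 11.25 and 18.0 in A/J to 52.79 and 83.85 in C3H/HeJ, values close to the floor. Copg2 (adjusted p = 0.0383) differed most in the pag, with 191.82 and 236.98 in C57BL/6J and 416.83 and 351.48 in DBA/2J, and in the pituitary gland these strains had 302.75 and 299.89, and 314.05 and 349.04. Igf2r (adjusted p = 0.0384) was 292.4 and 324.21 in the A/J pituitary gland and 186.12 and 202.29 in that of FVB/NJ, and 162.88 and 174.49 against 170.73 and 221.21 in the pag.

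A list of 46 other imprinted genes gave a background of the same kind, and 38 of them had a probe set of their own. By the brightest probe set of each gene, the hypothalamus had 14 higher and 4 lower, the hippocampus 3 and 20, the pituitary gland 17 and 11, the bnst 10 and 10 and the pag 13 and 4. Set against the shares of all probe sets given above, 36.8% higher in the hypothalamus and 52.6% lower in the hippocampus were above 17.0% and 29.3%. In the bnst 26.3% were higher and 26.3% lower, against 16.0% and 22.6%. In the pag 34.2% were higher and 10.5% lower, against 22.2% and 21.2%. The 44.7% higher and 28.9% lower in the pituitary gland were near 40.6% and 25.4%. The bases are unlike, since the shares of all probe sets include dim ones and not the brightest of each gene alone. Their median log2 difference was 0.03 in the hypothalamus and -0.28 in the hippocampus. The largest differences were those of Rasgrf1, a Ras exchange factor of neurons, lower in the pituitary gland (184 ± 24.0 against 2470 ± 235, SD; -3.75, adjusted p = 5.78e-44), Gatm, the enzyme of creatine synthesis, lower there too (52.6 ± 22.3 against 500 ± 138; -3.33, adjusted p = 4.73e-30), and Ddc, the decarboxylase of dopamine and serotonin synthesis, higher in the pag (1760 ± 298 against 280 ± 222; 3.09, adjusted p = 5.23e-30).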

How the data were processed

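RNA of 5 brain regions from 6 inbred strains was hybridised to 61 one-colour Affymetrix Mouse Genome 430 2.0 arrays. The authors made the deposited intensity values with the absolute analysis of the TeraGenomics database, which gave a background-corrected, globally scaled signal per probe set; the version and the scaling target are not given in the sources used here. Array means were 180.5 to 200.5, 5.36% of the values were below 0, and replicate arrays correlated with a median r of 0.9935 (lowest 0.974). Of 45037 probe sets without 64 controls, the platform annotation named 1 gene for 34945, several for 932 and none for 9160. Detection calls were not used here.

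Groups were read from the labels. The members, their clusters and the marker and gene lists were chosen with earlier results of these data known. The region-specific and strain-specific classes came from a two-way linear model with interaction, fitted to the unlogged signals, at a p under 0.01. limma 3.58.1 in R 4.3.3 (30 group means, eBayes with a trend, 31 residual degrees of freedom) was fitted to log2 signals floored at the 20th percentile (12.8), with Benjamini-Hochberg adjustment over 44065 probe sets above the floor on at least 1 array. On simulated data, 192 of 200 changed probe sets were recovered in the comparison of the hypothalamus. The changed ones were drawn from brighter probe sets, and no other difference between regions or strains was simulated. The recovery therefore does not cover the dim members. Permutation tests were two-sided with 100000 resamples (SciPy 1.17.1). Suffixes _s_at and _x_at mark probe sets that may detect other transcripts. The leading probe sets of Dlk1, Gnas and Commd1 carry the former, and those of Ndn, Plagl1 and Meg3 the latter.

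Genes named in full were, per region and per strain, the 5 called members with the largest difference in the same direction in every strain or region, the 6 with the smallest interaction p, genes with probe sets called in opposite directions, and 3 of the other imprinted genes. Alternatives were the floor (10th and 40th percentile), median and quantile scaling, a mean signal of at least 50, no filter, a replicate block, regression on log2 signals, and leaving out each array; leaving out 4 arrays rich in pituitary markers was added after seeing the data. Arrays that share a replicate number were not treated as pairs.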

Additional observations from a re-analysis of the deposited data

Results flagged for a closer look

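Strain differences that were not the same in each region were found by an F test of the interaction in limma for 6 leading probe sets beside Snhg14: Rian (adjusted p = 0.00618), Grb10 (adjusted p = 0.0118), Snrpn (adjusted p = 0.0138), Copg2 (adjusted p = 0.0383), Igf2r (adjusted p = 0.0384) and Cdkn1c (adjusted p = 0.045). Cdkn1c differed between bnst arrays, from 20.99 and 23.81 in C57BL/6J to 156.89 and 93.0 in 129S6/SvEvTac, and within C3H/HeJ from 156.04 to 33.12. The meningeal marker sums of these arrays were 523.6 and 493 in C57BL/6J, 1263.7 and 639.4 in 129S6/SvEvTac, and 1562.7 and 417.4 in the 2 C3H/HeJ arrays. Their part in the interaction was not tested.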

How the results depend on the processing

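The 25 counts and 39 differences of named genes were recomputed under the alternatives that bear on them, of 70 in all, of which 61 left out 1 array each, and no difference changed sign. Other floors do not enter the regression classes, and regression on log2 signals enters those classes alone. With each array scaled to 1 median, the imprinted probe sets called were 6 lower in 129S6/SvEvTac (10 as reported), 4 higher in A/J (9), 9 higher and 18 lower in C57BL/6J (14 and 8), 27 higher in DBA/2J (8) and 3 lower in FVB/NJ (6). Without 4 of the arrays rich in pituitary markers, an alternative chosen after seeing the data, 3 were lower in FVB/NJ. The cause was not tested. Leaving out 1 array gave 6 to 12 lower in 129S6/SvEvTac (6 without bnst replicate 1), 5 to 10 lower in C57BL/6J (5 without hippocampus replicate 1, hypothalamus replicate 1 or pag replicate 1), 4 to 9 higher in DBA/2J (4 without bnst replicate 2 or hypothalamus replicate 2, and 5 without hippocampus replicate 2, pag replicate 1 or pituitary gland replicate 2) and 3 to 6 lower in FVB/NJ (3 without hippocampus replicate 2, pag replicate 1 or pituitary gland replicate 2). The calls of Ndn in 129S6/SvEvTac (without hypothalamus replicate 2, adjusted p = 0.0649), Ndn in C57BL/6J (without hippocampus replicate 1, 0.057, or hypothalamus replicate 1, 0.0518) and Copg2 in C57BL/6J (without hippocampus replicate 2, 0.0695, hypothalamus replicate 2, 0.114, or pag replicate 1, 0.101) were lost. Every count in a region stayed within 1.5 times of the reported one under each alternative run for it. Replicate numbers were shared by number alone: deviations of same-numbered arrays correlated with a median r of -0.005 (-0.416 to 0.413), and a replicate block changed no call of a named gene and left every count within 1.5 times, with 43 higher in the hypothalamus and 53 lower in the hippocampus, as reported, and 25 with an interaction (20 with Snhg14 counted). Scaling moved the median of all probe sets by at most 0.1 on the log2 scale. Values near the floor of 12.8 limit what the dimmest genes can show.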
